A study of Homo sapiens with 2 samples.

Results

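The miR-106a-363 cluster and the miR-106b-25 cluster are paralogs of the miR-17-92 cluster, and 10 of their mature miRNAs were chosen by name from the 1450 miRNAs in the deposited table. The members were 4 miRNAs of the miR-106a-363 cluster (hsa-miR-106a-5p, hsa-miR-18b-5p, hsa-miR-20b-5p and hsa-miR-363-3p) and 6 of the miR-106b-25 cluster (hsa-miR-106b-5p, hsa-miR-106b-3p, hsa-miR-93-5p, hsa-miR-93-3p, hsa-miR-25-3p and hsa-miR-25-5p). The names were chosen with earlier results of these data known. All 10 were present, and all 10 passed the minimum mean normalized count of 1 that left 1115 miRNAs for testing. The 7 arms for which the clusters are known are called guide arms here (hsa-miR-106a-5p, hsa-miR-18b-5p, hsa-miR-20b-5p, hsa-miR-363-3p, hsa-miR-106b-5p, hsa-miR-93-5p and hsa-miR-25-3p). The other 3 members (hsa-miR-106b-3p, hsa-miR-93-3p and hsa-miR-25-5p) are called the opposite arms.

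Small RNA was sequenced from Jurkat cells, an immortalized human T-lymphocyte line, that overexpressed the long noncoding RNA lnc-CEBPB-13 (PELATON), and from Jurkat cells labelled control. By the study's methods, both groups were infected with a lentivirus, the first carrying PELATON and the second a control virus, with polybrene during infection and puromycin selection of stable lines afterwards. GEO lists 1 sample per group, and the table gives 1 mean per group, but each mean could be split exactly into the whole reads of 2 libraries. These are called overexpression libraries A and B and control libraries A and B, where the letters carry no pairing between the groups. No source says whether the 2 libraries within a group are from different cultures, so every p-value given here measures only the spread between these libraries, which may be technical. PELATON is not a miRNA and has no entry in the table, so the labels could not be checked against the overexpressed gene.

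A microRNA hairpin is cut by Drosha and Dicer into a short duplex, from which usually one strand, the guide, is loaded into an Argonaute protein and pairs with target mRNAs through its seed, while the opposite strand is mostly degraded. The miR-17-92 cluster and its paralogs repress regulators of cell-cycle exit and cell death, among them the CDK inhibitor CDKN1A (miR-106b and miR-93) and the pro-apoptotic protein BCL2L11 (miR-25). The miR-106b-25 cluster is cut out of an intron of MCM7, which encodes a subunit of the replicative helicase, and the miR-106a-363 locus is known as a site of retroviral insertion in T-cell tumours of mice.

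The sequences of the members show which of them can pair with the same targets and which reads could be confused with those of another hairpin. They are RefSeq sequences on GRCh38.p14, written 5′ to 3′, with the seed (bases 2 to 8) in capitals. All 10 members matched a RefSeq entry.
hsa-miR-106a-5p: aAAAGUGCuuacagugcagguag
hsa-miR-20b-5p: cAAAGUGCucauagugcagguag
hsa-miR-106b-5p: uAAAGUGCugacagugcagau
hsa-miR-93-5p: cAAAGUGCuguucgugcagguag
hsa-miR-18b-5p: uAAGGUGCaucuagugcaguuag
hsa-miR-363-3p: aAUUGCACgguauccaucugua
hsa-miR-25-3p: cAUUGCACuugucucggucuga
hsa-miR-106b-3p: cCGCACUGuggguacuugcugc
hsa-miR-93-3p: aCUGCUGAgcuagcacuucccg
hsa-miR-25-5p: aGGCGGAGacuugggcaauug

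The 10 members carried 6 seeds. The seed AAAGUGC was shared by 4 guide arms, 2 from each cluster, and the seed AUUGCAC by hsa-miR-363-3p and hsa-miR-25-3p, while hsa-miR-18b-5p and each of the 3 opposite arms had a seed that no other member had. Between the clusters, hsa-miR-106a-5p differed from hsa-miR-106b-5p at 3 of the 21 positions compared (A1U, U10G and G20A, counted from the 5′ end with the base of the first-named miRNA first). hsa-miR-20b-5p differed from hsa-miR-93-5p at 3 of 23 positions (C10G, A11U and A13C). Outside their seed, hsa-miR-363-3p and hsa-miR-25-3p had little in common and differed at 13 of 22 positions.

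Some members were nearly identical to a guide arm of the miR-17-92 cluster (host gene MIR17HG, chromosome 13), whose sequences are shown because a read of one can be counted for the other.
hsa-miR-17-5p: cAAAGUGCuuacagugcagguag
hsa-miR-20a-5p: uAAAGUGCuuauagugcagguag
hsa-miR-18a-5p: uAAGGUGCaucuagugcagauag
hsa-miR-92a-3p: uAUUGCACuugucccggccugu

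hsa-miR-106a-5p differed from hsa-miR-17-5p only in the first base (A1C), and hsa-miR-18b-5p from hsa-miR-18a-5p only by U20A. hsa-miR-20b-5p differed from hsa-miR-20a-5p by C1U and C10U, and hsa-miR-25-3p from hsa-miR-92a-3p at 4 of 22 positions. The levels of hsa-miR-106a-5p, hsa-miR-18b-5p and hsa-miR-20b-5p are therefore uncertain to the extent that such reads were assigned to the other copy, which was not tested.

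In the GENCODE annotation of GRCh38, release 29, the miR-106a-363 cluster lay on the minus strand of the X chromosome at chrX:134169378-134170278, with 6 hairpins within 901 bp. It lay in an exon of the gene AC002407.1. The miR-106b-25 cluster lay on the minus strand at chr7:100093560-100094074, with 3 hairpins within 515 bp. It was intronic in 8 of the 8 MCM7 transcripts that span it, and in the transcript with 15 exons it lay in intron 13. hsa-miR-92a-3p and hsa-miR-19b-3p are made from hairpins of both the miR-106a-363 and the miR-17-92 cluster and could not be assigned to one of them.

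The overexpression libraries held 2052494 and 1177485 miRNA reads, and the control libraries 2615868 and 2663279. The 10 members took 6.77% (95% exact Clopper-Pearson interval 6.73% to 6.80%) and 6.42% (6.38% to 6.47%) of the reads in the overexpression libraries, against 8.25% (8.22% to 8.28%) and 8.68% (8.64% to 8.71%) in the control libraries. Intervals cover counting error only, because reads after PCR are not independent molecules. Leukocyte miRNAs fixed as markers (6 of 6 in the table) summed to between 329889 and 346156 normalized counts in the overexpression libraries and between 355456 and 372824 in the control libraries. Of 7 heart and skeletal muscle miRNAs, 5 were in the table and 4 were higher with overexpression by the 2-fold rule. Their sum was 4078 to 4891 normalized counts with overexpression, against 33.1 to 56.0 in control, where hsa-miR-133b and hsa-miR-206 were at 0. Sums were also higher for smooth muscle and fibroblast miRNAs (437 to 502 with overexpression, against 115 to 151 in control, 4 of 5 higher by the 2-fold rule) and for red blood cell miRNAs (769 to 1126, against 121 to 158, 2 of 3 higher). Epithelial miRNAs, 5 of 5 in the table and 0 of them different by that rule, summed to between 621 and 766 with overexpression and between 793 and 824 in control. Whether these differences have a part in the values of the cluster members was not tested.

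The guide arms of the miR-106a-363 cluster were all lower with overexpression and without overlap of the groups, as were 23.8% of all 1115 miRNAs. By the limma test 3 of the 4 fell, beside 3.05% of all. hsa-miR-106a-5p had 1963 and 1449 normalized counts in overexpression libraries A and B, against 2862 and 4925 in control libraries A and B. hsa-miR-20b-5p, which has the same seed, had 2724 and 2088 normalized counts with overexpression and 4323 and 6673 in control. Both were lower in each overexpression library than in either control library, and control library B held the highest value of both. In limma on log2(normalized count + 1), with Benjamini-Hochberg adjustment over the 1115 miRNAs, hsa-miR-106a-5p fell by 1.15 on the log2 scale (SE 0.27, adjusted p = 0.0495) and hsa-miR-20b-5p by 1.17 (SE 0.24, adjusted p = 0.0309). hsa-miR-106a-5p was at the threshold and passed it in 5 of 16 alternative settings. The 16 include median of ratios scaling, which repeats the fit used, and fits with a library left out, which say nothing about single calls. With all 4 libraries kept, limma's adjusted p ran between 0.00946 and 0.402. The upper end came from a constant prior variance, which called 0 of all 1115 miRNAs. hsa-miR-106a-5p missed the threshold with TMM scaling (limma adjusted p = 0.0504), a pseudocount of 0.5 (0.0748) and no filter (0.0679).

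hsa-miR-363-3p, the most abundant guide arm of the cluster, had 13744 and 13091 normalized counts with overexpression and 22840 and 23805 in control. The libraries of each group lay close together and the groups were well apart. It fell by 0.80 on the log2 scale (SE 0.15, limma adjusted p = 0.0250). hsa-miR-18b-5p, the scarcest member, had 75.4 and 83.7 normalized counts with overexpression and 94.5 and 164 in control. Its groups did not overlap, but overexpression library B and control library A were close, and its log2 difference of −0.64 (SE 0.34, limma adjusted p = 0.377) did not pass. In bulk samples such as these, fewer cells that make a miRNA and less of it per cell cannot be told apart.

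**Figure D1:**
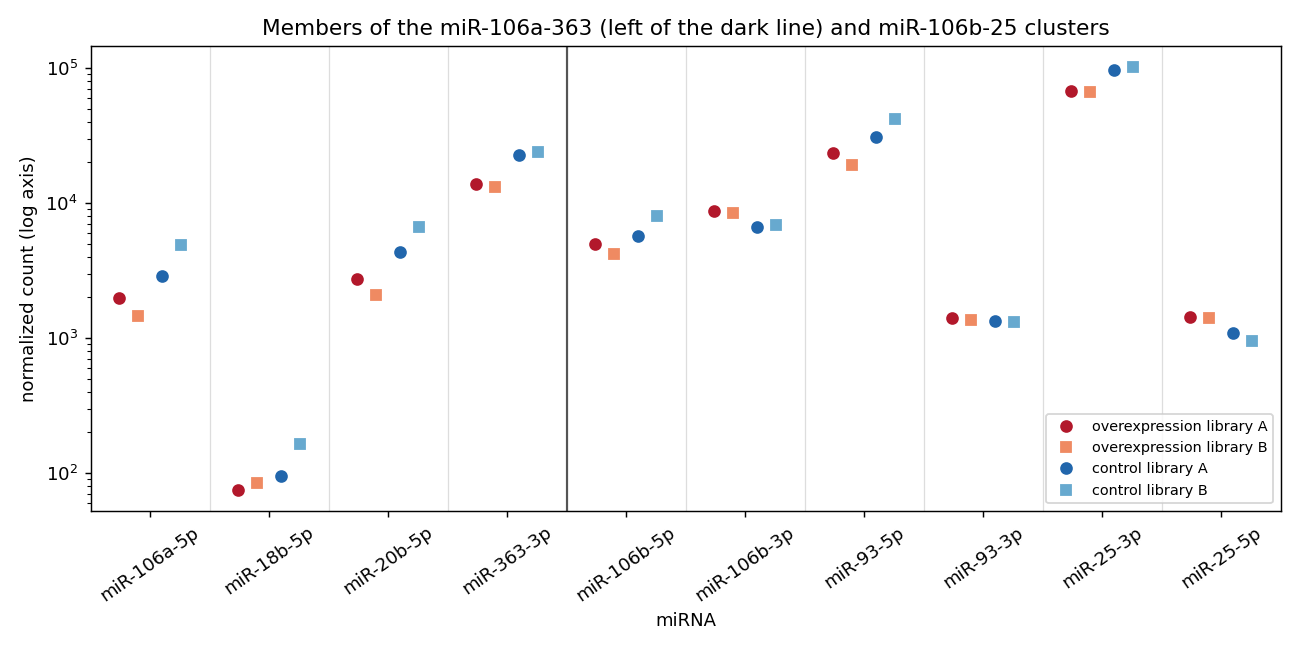
Normalized count of each member on a log axis in the 4 libraries, overexpression libraries in red and orange and control libraries in blue, with the miR-106a-363 members left of the dark line. For the 7 guide arms every overexpression library lies below both control libraries, whereas hsa-miR-106b-3p, hsa-miR-93-3p and hsa-miR-25-5p lie above them.

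The guide arms of the miR-106b-25 cluster were also lower in each overexpression library than in either control library, as were 23.8% of all 1115 miRNAs. By the limma test 0 of the 3 passed, beside 3.05% of all on the lower side. At an unadjusted p under 0.05 limma had 3 of 3 lower, as it had 10.1% of all. Calls on either side of 0.05 do not test a difference between the clusters. hsa-miR-106b-5p had 4945 and 4177 normalized counts with overexpression and 5704 and 7971 in control. hsa-miR-93-5p had 23653 and 19042 with overexpression and 30914 and 41730 in control. In both, control library B stood above control library A by more than the gap between control library A and the nearer overexpression library. The limma log2 differences were −0.57 (SE 0.20, adjusted p = 0.172) for hsa-miR-106b-5p and −0.76 (SE 0.20, adjusted p = 0.0747) for hsa-miR-93-5p.

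hsa-miR-25-3p, the most abundant member, had 67471 and 66047 normalized counts with overexpression and 96904 and 101676 in control. The gap between the groups was several times the gap between the libraries of a group. Its limma log2 difference was −0.57 (SE 0.16, adjusted p = 0.0924), which missed the threshold of 0.05. That call depended on the filter on low values. With a minimum mean of 10, hsa-miR-25-3p (limma adjusted p = 0.0410) and hsa-miR-93-5p (limma adjusted p = 0.0394) passed as well. This filter left 588 miRNAs, of which 79 were called, against 55 of 1115 in the fit used. Over the alternative settings that kept all 4 libraries, limma's adjusted p ran between 0.0261 and 0.481 for hsa-miR-25-3p and between 0.0313 and 0.447 for hsa-miR-93-5p. The lower ends came from a minimum mean of 50, where 86 of 362 miRNAs were called. The upper ends came from a constant prior variance, which called 0 of all 1115.

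The opposite arms of the same hairpins were not lower. hsa-miR-106b-3p had 8723 and 8385 normalized counts with overexpression and 6689 and 6899 in control. hsa-miR-25-5p had 1434 and 1413 with overexpression and 1084 and 944 in control. For both, each overexpression library was above both control libraries, but neither passed the limma test, with log2 differences of 0.33 (SE 0.15, adjusted p = 0.291) and 0.49 (SE 0.17, adjusted p = 0.172). hsa-miR-93-3p had 1397 and 1365 normalized counts with overexpression and 1326 and 1315 in control. Its limma log2 difference of 0.06 (SE 0.16, adjusted p = 0.885) was below its own standard error, and it became −0.03 with TMM scaling and −0.09 with upper quartile scaling.

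By the limma test 3 of the 10 members were lower, beside 3.05% of all 1115 miRNAs, and 0 were higher, beside 1.88% of all. These shares include many miRNAs scarcer than any member. With a minimum mean of 50, which all 10 members passed, limma called 5 of the 10, all lower. It then called 86 of 362 miRNAs in both directions together. At an unadjusted p under 0.05 limma had 6 of the 10 members lower, beside 10.1% of all miRNAs, and 1 higher, hsa-miR-25-5p, beside 8.43%. By the rule that the group means differ by at least 2-fold, hsa-miR-106a-5p and hsa-miR-20b-5p were lower (2 of 10, beside 14.7% of all miRNAs), and 0 of 10 were higher, beside 15.6%. The libraries of the groups did not overlap in any member. The 7 guide arms were on the lower side, as were 23.8% of all miRNAs, and the 3 opposite arms on the higher side, as were 22.4%. The median log2 ratio of overexpression over control was −0.99 for the 4 guide arms of the miR-106a-363 cluster, −0.58 for the 3 of the miR-106b-25 cluster and 0.33 for the 3 opposite arms, beside 0.06 for all 1115 miRNAs.

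**Figure D2:**
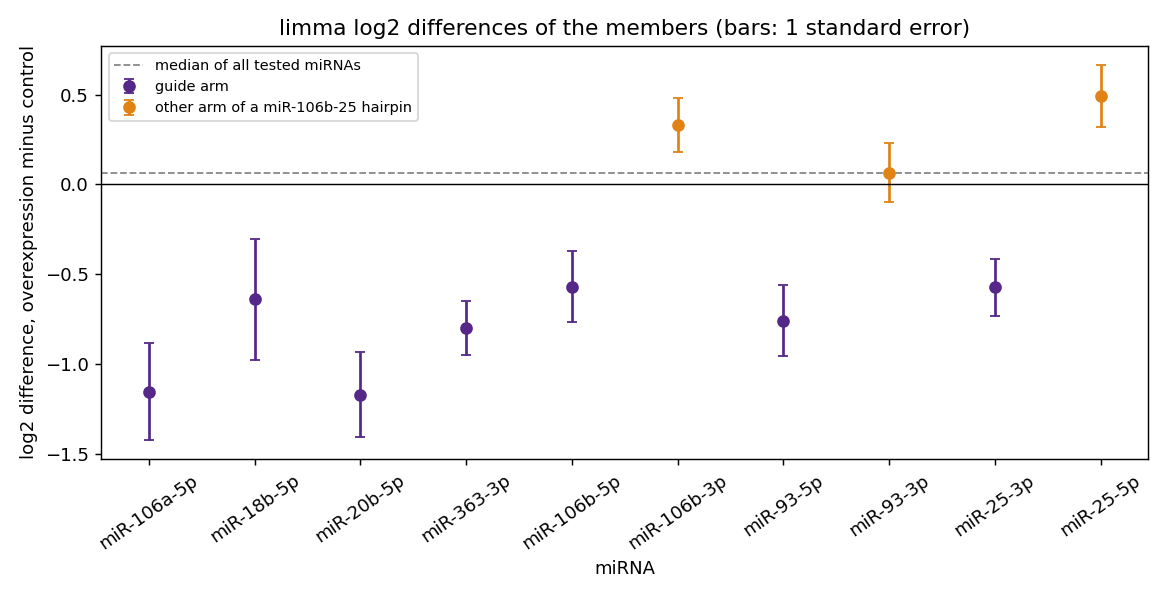
limma log2 difference, overexpression minus control, of each member, with bars of 1 standard error, guide arms in purple and opposite arms of the miR-106b-25 hairpins in orange. The guide arms lie between −1.17 and −0.57 and the opposite arms between 0.06 and 0.49, with the median of all tested miRNAs (0.06) as a dashed line.

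The size of the differences depended on the scaling between libraries. Against the deposited scaling, the median log2 ratio of all miRNAs shifted by −0.15 with upper quartile scaling, by 0.21 with total reads and by 0.20 with total reads without the 10 most abundant miRNAs. Under both totals 0 of 10 members were lower by limma or by the 2-fold rule. Over the whole table limma then called 24 of 1094 and 24 of 1095 miRNAs, against 55 of 1115 with the deposited scaling. The log2 ratios of hsa-miR-106a-5p and hsa-miR-20b-5p were −0.94 and −0.94 under total reads. The guide arms stayed below 0 and hsa-miR-106b-3p and hsa-miR-25-5p above 0 under each of the 5 scalings, although only 6 guide arms stayed clear of overlap under both totals. Without any 1 of the 4 libraries, limma called 0 of the 10 members. These fits of 1 library against 2 also called 0 of the 1115 miRNAs, so they say nothing about the stability of single calls. The fitted log2 differences then lay between −1.55 and −0.76 for hsa-miR-106a-5p, between −1.48 and −0.86 for hsa-miR-20b-5p and between −0.83 and −0.76 for hsa-miR-363-3p. Without control library B the 2-fold rule also counted 0 of 10, with log2 ratios of −0.75 for hsa-miR-106a-5p and −0.84 for hsa-miR-20b-5p.

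The control libraries differed from each other in the same members. Control library B was above control library A in 7 of the 7 guide arms, by 0.78 on the log2 scale for hsa-miR-106a-5p, 0.79 for hsa-miR-18b-5p, 0.63 for hsa-miR-20b-5p, 0.48 for hsa-miR-106b-5p and 0.43 for hsa-miR-93-5p. For hsa-miR-363-3p and hsa-miR-25-3p, which share the seed AUUGCAC, that difference was 0.06 and 0.07. The 3 opposite arms differed by between −0.20 and 0.04. Thus the AAAGUGC members and hsa-miR-18b-5p carried most of the spread within the control group, and hsa-miR-363-3p and hsa-miR-25-3p little of it.

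GC content moved with these differences. The guide arms had 40.9% to 52.2% GC and the opposite arms 57.1% to 63.6%. Across the 973 tested miRNAs with a sequence, Spearman's rho of GC content with the log2 difference, overexpression minus control, was 0.27, and with the difference of control library B minus A it was −0.16. Across the 315 of them with a mean of at least 50 these were 0.54 and −0.33. The miRNAs share their libraries and are not independent. After GC content was removed from each library by a loess fit, an alternative chosen after the data had been seen, limma called 1 of the 10 members, beside 31 of all 973 miRNAs. This was hsa-miR-20b-5p (limma adjusted p = 0.0494, against a range of 0.00579 to 0.376 over its alternatives that kept all 4 libraries). The log2 differences were then −1.11 for hsa-miR-20b-5p, −1.02 for hsa-miR-106a-5p (limma adjusted p = 0.0637) and −0.57 for hsa-miR-363-3p. For hsa-miR-363-3p limma's adjusted p was 0.0890, against a range of 0.0120 to 0.391 over the same alternatives. The upper ends of these ranges came from a constant prior variance, which called 0 of all 1115 miRNAs. The part of GC content in the differences was not tested further.

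Among the members the order of levels, in normalized counts of mature RNAs of 21 to 23 bases, was similar in both groups. With overexpression it ran hsa-miR-25-3p, hsa-miR-93-5p, hsa-miR-363-3p, hsa-miR-106b-3p, hsa-miR-106b-5p, hsa-miR-20b-5p, hsa-miR-106a-5p, hsa-miR-25-5p, hsa-miR-93-3p and hsa-miR-18b-5p, and no neighbours in that order overlapped between the 2 libraries. In control the ranges of hsa-miR-106b-5p and hsa-miR-106b-3p overlapped, as did those of hsa-miR-20b-5p and hsa-miR-106a-5p. hsa-miR-93-3p was below hsa-miR-25-5p with overexpression and above it in control. The members were far from equally abundant although each cluster lies in one short stretch of the genome. hsa-miR-363-3p alone made up 74.3% (exact interval 73.7% to 74.9%) and 78.3% (77.5% to 79.1%) of the miR-106a-363 guide reads in the overexpression libraries, against 75.8% (75.4% to 76.3%) and 66.9% (66.5% to 67.4%) in the control libraries.

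The sums show how the clusters compared. The 4 guide arms of the miR-106a-363 cluster summed to 18506 and 16712 normalized counts with overexpression and to 30119 and 35567 in control, a log2 ratio of means of −0.90. The 3 guide arms of the miR-106b-25 cluster summed to 96069 and 89266 with overexpression and to 133523 and 151378 in control, a log2 ratio of −0.62. The opposite arms of the miR-106b-25 cluster summed to 11554 and 11163 with overexpression and to 9099 and 9158 in control, a log2 ratio of 0.32.

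Within a library, the ratio of the cluster sums does not depend on scaling. The miR-106a-363 sum was 19.3% and 18.7% of the miR-106b-25 sum in the overexpression libraries and 22.6% and 23.5% in the control libraries. The groups did not overlap, and the log2 difference was −0.28 (−0.31 to −0.25 when each library was left out in turn). An exact two-sided permutation test gave p = 0.333, the smallest p that this test can give with 2 libraries against 2, so it cannot show a difference at 0.05. The same was seen in the 3 pairs of members with a common seed. hsa-miR-106a-5p was 39.7% and 34.7% of hsa-miR-106b-5p with overexpression and 50.2% and 61.8% in control (log2 difference −0.59). hsa-miR-20b-5p was 11.5% and 11.0% of hsa-miR-93-5p with overexpression and 13.98% and 16.0% in control (−0.41). hsa-miR-363-3p was 20.4% and 19.8% of hsa-miR-25-3p with overexpression and 23.6% and 23.4% in control (−0.23). In each of the 3 pairs both overexpression libraries were below both control libraries, with an exact permutation p = 0.333 and an adjusted p = 0.333.

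**Figure D3:**
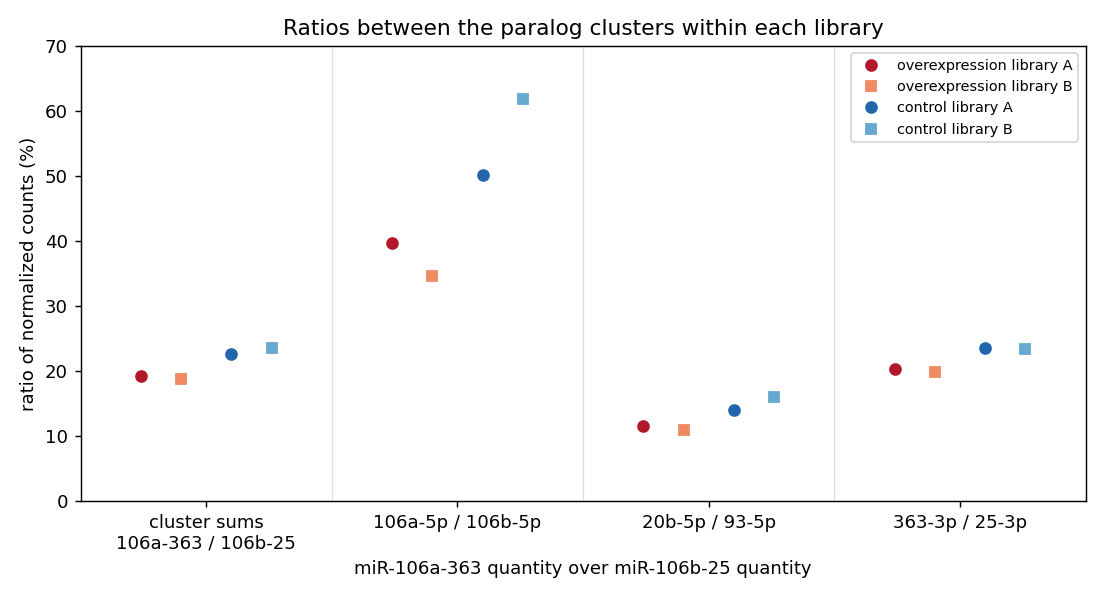
Ratio, in percent of normalized counts, of the miR-106a-363 quantity to the miR-106b-25 quantity within each library, for the sums of the guide arms and for 3 pairs of members that share a seed. The overexpression libraries (19.3% and 18.7% for the sums) lie below the control libraries (22.6% and 23.5%) in all 4 ratios.

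The arms of one hairpin come from one precursor, so their ratio within a library compares strands independently of the amount of precursor and of scaling. For miR-25 there were 47.0 and 46.7 reads of the 3p arm per read of the 5p arm with overexpression and 89.4 and 108 in control. The 5p arm was 2.08% (exact interval 1.98% to 2.19%) and 2.09% (1.96% to 2.23%) of the hairpin's reads with overexpression, against 1.11% (1.05% to 1.17%) and 0.919% (0.866% to 0.975%) in control. For miR-93 there were 16.9 and 13.95 reads of the 5p arm per read of the 3p arm with overexpression and 23.3 and 31.7 in control. In both hairpins the guide arm outnumbered the opposite arm by less in each overexpression library than in either control library.

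For miR-106b the arms were nearly balanced and the opposite arm was often the more abundant. There were 1.76 and 2.01 reads of the 3p arm per read of the 5p arm with overexpression and 1.17 and 0.87 in control. The 3p arm thus led in both overexpression libraries and in control library A, and the 5p arm led in control library B alone.

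limma on the log2 arm ratio over the 298 hairpins whose arms both had a mean of at least 1 called 1 of the 7 hairpins of the clusters, miR-25, with a difference of −1.07 (SE 0.23, adjusted p = 0.0255), beside 2.01% of all 298. miR-106b had a difference of 0.90 for 3p over 5p (SE 0.24, adjusted p = 0.0533) and miR-93 one of −0.82 for 5p over 3p (SE 0.24, adjusted p = 0.0780), and neither passed. In this fit the prior variance followed the level of the less abundant arm. That choice was made after the results of both fits had been seen, on the ground of simulated data. There a prior that followed the mean arm ratio, the default of limma, recovered 0% of 4-fold differences. The one used recovered 32.6%. The simulation gave all miRNAs 1 common dispersion (0.0398), so the spread of a simulated arm ratio followed read level. It therefore cannot show which prior suits the real libraries. With the default prior 0 of the 7 hairpins were called, beside 0% of all 298, with 36 of the 298 at an unadjusted p under 0.05. The miR-25 call was also lost with a constant prior (0 of 298 hairpins called), without a filter (0 of 408) and after GC correction (1 of 239). With any 1 of the 4 libraries left out, 0 of the 298 hairpins were called, so those fits say nothing about miR-25 in particular. Its difference lay between −1.20 and −0.93 and its adjusted p between 0.000783 and 0.429 over 11 alternatives. GC correction left the difference of miR-25 at −1.09 and of miR-93 at −0.87, while that of miR-106b, whose arms differ by 20.8 percentage points of GC, became 0.28.

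**Figure D4:**
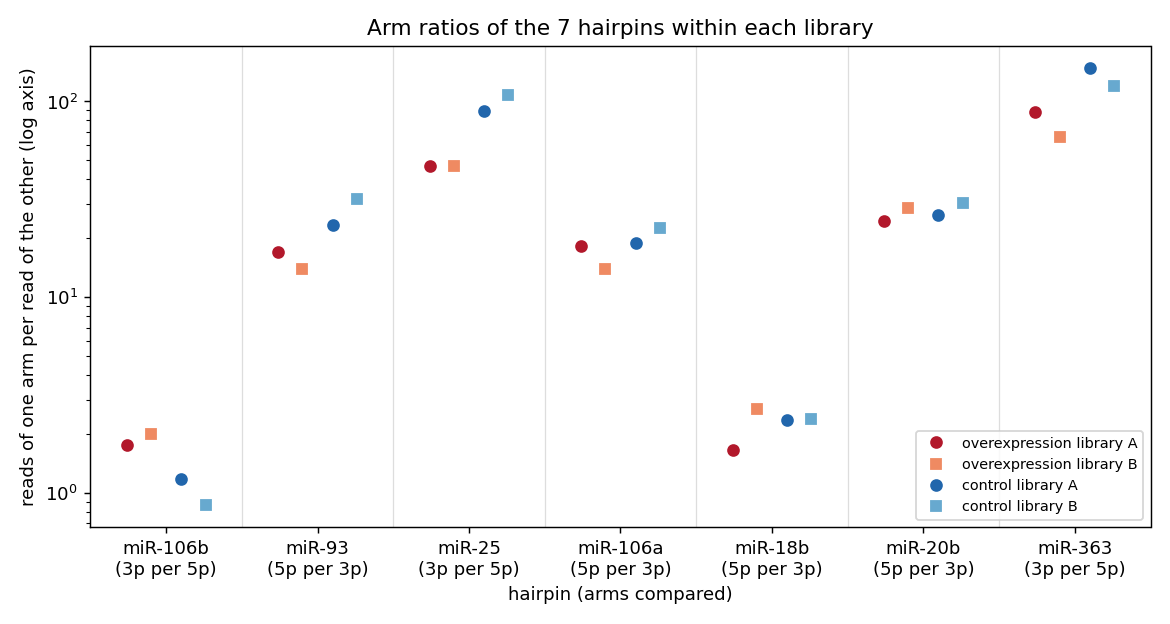
Reads of the more abundant arm per read of the other arm, on a log axis, for the 7 hairpins in the 4 libraries, with the arms compared written below each hairpin. The overexpression libraries lie below the control libraries for miR-93, miR-25, miR-106a and miR-363, above them for miR-106b, and overlap them for miR-18b and miR-20b.

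In the miR-106a-363 cluster none of the 4 hairpins was called. miR-363 had 88.0 and 65.5 reads of the 3p arm per read of the 5p arm with overexpression and 149 and 119 in control, a log2 difference of −0.81 (SE 0.31, limma adjusted p = 0.139). For miR-106a, miR-18b and miR-20b the differences were −0.38, −0.17 and −0.10 (limma adjusted p between 0.621 and 0.885). The sign for miR-18b turned to 0.17 without overexpression library A, and that for miR-20b to 0.01. hsa-miR-20b-3p, the opposite arm of hsa-miR-20b-5p, had 111 and 72.8 normalized counts with overexpression and 164 and 220 in control, and hsa-miR-106a-3p had 107 and 104 with overexpression and 151 and 217 in control. Both were lower in each overexpression library than in either control library, with limma log2 differences of −1.07 (adjusted p = 0.107) and −0.78 (adjusted p = 0.183). For hsa-miR-18b-3p, which had 45.4 and 31.0 with overexpression and 40.0 and 68.7 in control, the groups overlapped. They also overlapped for hsa-miR-363-5p, with 156 and 200 normalized counts with overexpression and 154 and 199 in control.

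The remaining hairpins of the miR-106a-363 cluster give miRNAs that are made elsewhere too. hsa-miR-92a-3p had 264109 and 259993 normalized counts with overexpression and 356235 and 439632 in control (limma log2 difference −0.59, adjusted p = 0.135). hsa-miR-19b-3p, which has another seed, had 7107 and 6276 with overexpression and 5987 and 8543 in control, and its groups overlapped. Of the arms made only from the X chromosome hairpins, hsa-miR-92a-2-5p had 20.9 and 41.8 with overexpression and 42.4 and 26.3 in control, and hsa-miR-19b-2-5p had 1 and 0 reads in overexpression libraries A and B and 0 and 1 in control libraries A and B. These 2 arms therefore gave no measure of how the hairpins of the X chromosome changed.

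Seeds were read from RefSeq for 1285 of the 1450 miRNAs. Of these, 6 had the seed AAAGUGC. The log2 ratio was below 0 in 6 of 6, beside a median of 0.06 for all 1115 miRNAs. By the 2-fold rule 4 of 6 were lower, beside 14.7% of all. This seed is that of the miR-17 family. The reads of the group summed to 63271 and 48743 normalized counts with overexpression and to 84277 and 140296 in control, a log2 ratio of −1.004. The 4 members of the clusters took 52.6% (exact interval 52.2% to 53.0%) and 54.9% (54.3% to 55.4%) of these reads with overexpression, against 52.0% (51.7% to 52.3%) and 43.7% (43.5% to 43.9%) in control. The rest were hsa-miR-17-5p and hsa-miR-20a-5p. hsa-miR-17-5p had 13374 and 9681 normalized counts with overexpression and 20265 and 37214 in control (limma log2 difference −1.27, adjusted p = 0.0430), and hsa-miR-20a-5p had 16612 and 12306 with overexpression and 20209 and 41784 in control (−1.02, adjusted p = 0.128).

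The seed AUUGCAC was carried by 5 of the matched miRNAs. The log2 ratio was below 0 in 5 of 5, beside a median of 0.06 for all 1115 miRNAs. By the 2-fold rule 1 of 5 was lower, beside 14.7% of all. They summed to 355954 and 350105 normalized counts with overexpression and to 489325 and 577431 in control, a log2 ratio of −0.60. Beside hsa-miR-25-3p, hsa-miR-363-3p and hsa-miR-92a-3p, these were hsa-miR-92b-3p (log2 ratio −0.23, limma adjusted p = 0.490) and hsa-miR-32-5p (−1.13, limma adjusted p = 0.0309). The seed AAGGUGC was carried by hsa-miR-18b-5p and hsa-miR-18a-5p, the second with 1212 and 877 normalized counts with overexpression and 1685 and 2546 in control (limma log2 difference −1.01, adjusted p = 0.0614). The 3 opposite arms had seeds that no other miRNA among the 1285 matched to RefSeq carried.

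The near-identical pairs can also be compared within a library. hsa-miR-106a-5p was 14.7% and 14.96% of hsa-miR-17-5p with overexpression and 14.1% and 13.2% in control, so it was higher in each overexpression library. hsa-miR-20b-5p was 16.4% and 16.97% of hsa-miR-20a-5p with overexpression and 21.4% and 16.0% in control, and its groups overlapped. hsa-miR-18b-5p was 6.22% and 9.54% of hsa-miR-18a-5p with overexpression and 5.61% and 6.43% in control, again with overlap. These ratios, and the part in them of reads assigned to the other copy, were not tested.

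The miRNAs with the closest centred log2 values over the 4 libraries were sought outside the 10 members, among 297 miRNAs with a mean of at least 100. A fellow member could therefore not be named, and distances between members are not given. Closest to hsa-miR-106a-5p were hsa-miR-17-5p (Euclidean distance 0.14), hsa-miR-18a-5p (0.20) and hsa-miR-20a-5p (0.23). For hsa-miR-20b-5p they were hsa-miR-18a-5p (0.18), hsa-miR-374b-5p (0.19) and hsa-let-7f-5p (0.20). For hsa-miR-25-3p they were hsa-miR-151a-5p (0.03), hsa-miR-28-5p (0.07) and hsa-miR-192-5p (0.07), and for hsa-miR-93-5p they were hsa-miR-7-5p (0.10), hsa-miR-140-5p (0.16) and hsa-let-7f-1-3p (0.17). Thus, with the members left out, the pattern of hsa-miR-106a-5p was closest to guide arms of the miR-17-92 cluster. It differs from hsa-miR-17-5p only in the first base, and the part of reads assigned to the other copy in this closeness was not tested. The nearest miRNAs of hsa-miR-25-3p and hsa-miR-93-5p outside the members came from other loci.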

How the data were processed

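The deposited table held, for 1450 mature miRNAs, the mean normalized count of each group (signal values) as the authors made it with DESeq. The submitters' processing notes name the build GRCh38.p14. The aligner and the miRNA annotation are not given in the sources used here. The library kit was one for small RNA in the methods and one for mRNA in the labels. The deposited columns of the authors' own comparison (the control mean divided by the overexpression mean, its log2, a p-value and an adjusted p-value) were not used. Ratios here are overexpression over control.

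Each of the 1450 means per group was solved for the whole reads of 2 libraries and their size factors, with exactly 1 solution for 100% of values (relative tolerance 1e-14, absolute tolerance 1e-11). Reads per library are given with the results. Where a mean normalized count was at least 1, log2(normalized count + 1) was tested in limma 3.58.1 (R 4.3.3) with a trended prior variance and Benjamini-Hochberg adjustment, called at 0.05. A pseudocount understates the differences of low miRNAs. Simulated data held 1121 miRNAs with 1 common dispersion. On them this fit recovered 26.5% of 2-fold and 76.0% of 4-fold differences and called 0.324% of unchanged miRNAs. The arm fit recovered 7.5% of 2-fold and 32.6% of 4-fold differences over 299 hairpins. The design called for a trended prior in the arm fit without naming what the trend follows. Single ratios were compared by exact permutation tests over the 6 splits of 4 libraries (scipy 1.17.1). RefSeq held a sequence for 88.6% of the miRNAs.

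All 10 members were named, with the other arms of their hairpins, the miR-17-92 guide arms and every miRNA of the same seed with a mean of at least 10. For 4 members the 3 nearest miRNAs outside the list of members were also named. The members and lists were chosen with earlier results of these data known. Alternatives covered scaling, pseudocount, filter, fold, prior variance, each library left out, and, chosen after seeing the data, GC content, the covariate of the prior in the arm fit, and the overlap of groups under other scalings.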

Additional observations from a re-analysis of the deposited data

How the results depend on the processing

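Several calls depended on the settings. Against 3 members lower by limma (55 of all 1115 miRNAs called), 0 were called under total reads (24 of 1094), total reads without the 10 most abundant miRNAs (24 of 1095) and a constant prior variance (0 of 1115). After GC correction 1 was called (31 of 973). With a minimum mean of 10 or of 50, where fewer miRNAs were tested, 5 were called (79 of 588 and 86 of 362). At those filters more miRNAs were called over the whole table as well. Leaving out each library gave 0 to 0, in fits of 1 library against 2 that called 0 of all 1115 miRNAs and so say nothing about single calls. Against 2 members lower at 2-fold, 0 were counted under both totals and at 4-fold and 5 at 1.5-fold, and leaving out each library gave 0 to 3. Of the arm differences, 1 was called in the fit used (6 of all 298 hairpins). Without a filter (0 of 408), with a constant prior variance (0 of 298), after GC correction (1 of 239) and with the prior trended on the mean arm ratio (0 of 298), 0 were called. With a minimum mean of 10, 3 were called, beside 31 of all 149 hairpins. Leaving out each library gave 0 to 0 arm calls, with 0 of all 298 called. hsa-miR-93-3p changed sign under TMM scaling (log2 ratio −0.0264, limma −0.0265), upper quartile scaling (−0.0925 and −0.0944) and GC correction (limma −0.0701). The arm ratio of miR-18b changed sign without overexpression library A and after GC correction (0.20), and that of miR-20b without overexpression library A or control library B. With each library left out in turn, the log2 arm difference ran between −0.511 and 0.175 for miR-18b and between −0.207 and 0.00857 for miR-20b. GC correction, the prior on the mean arm ratio and the count of members whose groups do not overlap under other scalings were chosen after seeing the data. The cluster ratio kept its direction under every alternative run, but GC correction was not among them. After GC correction the limma log2 differences were −0.57 for hsa-miR-363-3p and −0.52 for hsa-miR-25-3p, the most abundant guide arms of the clusters. They were −1.02 for hsa-miR-106a-5p and −0.42 for hsa-miR-106b-5p, and −1.11 for hsa-miR-20b-5p and −0.73 for hsa-miR-93-5p. Limma counts over all miRNAs ran between 0 and 86, against 55 in the fit used. The causes of these changes were not tested. No paired analysis was possible because the labels give 1 sample per group and the libraries carry no shared numbers. At this depth hsa-miR-18b-5p and the arms with under 100 normalized counts are the least precise.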
